A study of Drosophila melanogaster with 6 samples.

Results

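The genes described here make glutathione or belong to the CncC/Keap1 switch that turns its synthesis on. They were taken by FlyBase symbol from the table of reads per gene: Gclc, Gclm, Gss1, Gss2, cnc, Keap1, maf-S, Trxr1 and ref(2)P, 9 of the 17477 genes in the table. The libraries came from poly(A) RNA of dissected body wall muscle and cuticle of larvae in the third instar, of mixed sex. There were 3 libraries of the control genotype w1118 and 3 of the exercised genotype OK6-Gal4bc > CsChrimbc. Exercised larvae carried the motor neuron driver OK6-Gal4bc and UAS-CsChrimbc, which encodes a cation channel opened by red light, so that light made the body wall muscles contract. Both transgenic lines had been backcrossed to w1118, and both groups were fed all-trans retinal overnight and received 2 h of pulsed light before dissection. Genotype and contraction therefore differed together between the groups, and their effects cannot be told apart. No library here is of transgenic larvae kept without light.

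Glutathione is the main small thiol of animal cells, and it keeps proteins reduced, removes peroxides with the help of peroxidases and is joined to toxic compounds by glutathione S-transferases. Glutamate-cysteine ligase, made of a catalytic subunit (Gclc) and a modifier subunit (Gclm), catalyzes the rate-limiting step, and glutathione synthetase (Gss1 and Gss2) adds glycine. Flies have no glutathione reductase, so thioredoxin reductase (Trxr1) feeds electrons to the thioredoxins that keep glutathione reduced. CncC, a long product of the cnc gene and the fly counterpart of mammalian Nrf2, is held back by Keap1, which brings it to a Cul3 ubiquitin ligase. When Keap1 is disabled by oxidants or electrophiles, CncC pairs with the small Maf protein (maf-S) and binds antioxidant response elements. ref(2)P is the fly p62, a selective autophagy receptor and a target of CncC, and its mammalian counterpart p62 can take Keap1 away.

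The transcripts of both ligase subunits rose together, 4.63-fold for Gclc and 5.80-fold for Gclm, while those of the switch itself (cnc, Keap1 and maf-S) did not pass the test. Trxr1 and ref(2)P rose by less, 1.53-fold and 1.37-fold. The glutathione synthetase genes had 2 reads in all libraries together. Of the 9 genes, 7 had enough reads to be tested, of which 4 were higher and none was lower, against 10.3% of 9127 tested genes called higher and 8.52% called lower at an adjusted p under 0.05 (edgeR). At an unadjusted p under 0.05, edgeR gave 4 higher and 1 lower (maf-S), DESeq2 4 and 0, and limma-voom 4 and 1, and after adjustment all 3 tools called 4 higher and 0 lower. The values of the 7 tested genes are plotted by library as CPM, the reads per 1000000 of the library total after scaling by edgeR's TMM factors.

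**Figure D1:**
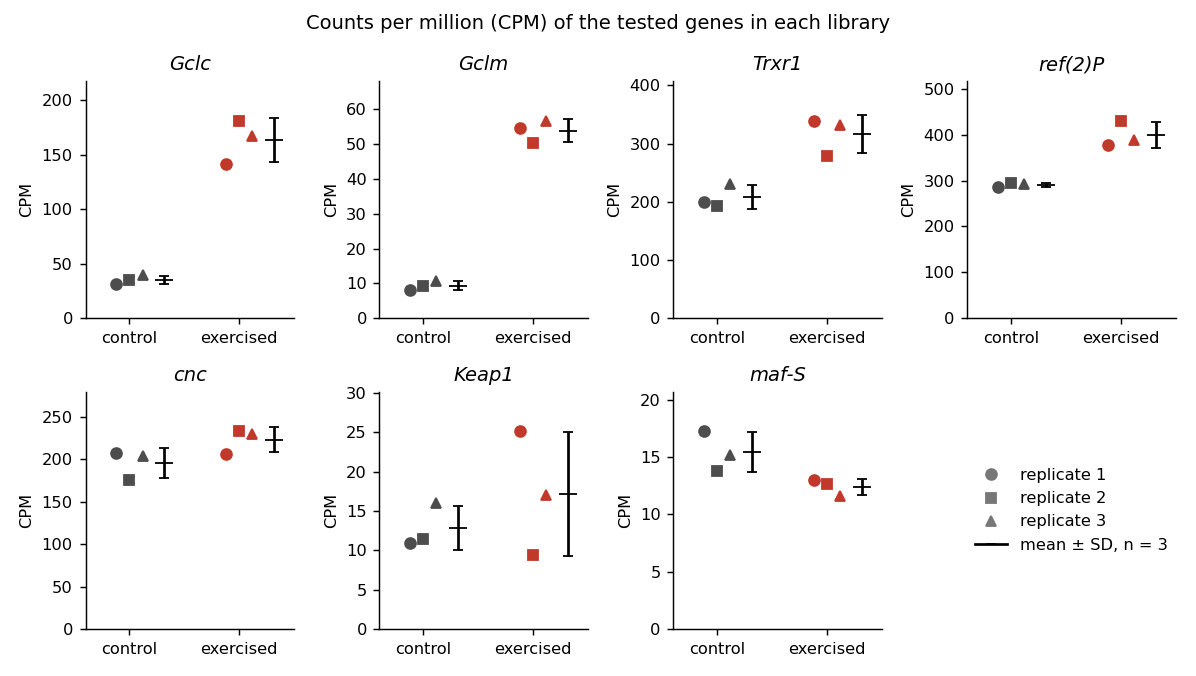
CPM (y axis, linear from 0) of the 7 tested genes in the 3 control (gray) and 3 exercised (red) libraries, with the mean ± SD beside the points. The groups stand apart for Gclc, Gclm, Trxr1, ref(2)P and, in the other direction, maf-S, and overlap for cnc and Keap1, where exercised replicates 1 and 2 lie at 25.1 and 9.36 CPM.

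Some markers of fat body, blood cells and sex differed between the groups. Over all tested genes, 10.3% were called higher and 8.52% lower, the shares to set beside the counts of markers. Control replicate 3 had Lsp1beta, a storage protein transcript of the fat body, at 1902 CPM, against 267 and 206 CPM in control replicates 1 and 2 and 1759 to 2417 CPM in exercised larvae. Summed over 8 fat body markers, of which 2 were called higher (Fbp1 and Lsp1gamma) and none was at 0, the range was 420 to 3641 CPM in control and 5065 to 6764 CPM in exercised larvae. Of these sums, Lsp1gamma made up 1.78 to 2.54 CPM in control and 1654 to 2408 CPM in exercised larvae. In control replicate 3, Gclc (39.2 CPM) and Gclm (10.6 CPM) were the highest of the controls and far below the lowest exercised values (142 and 50.3 CPM). Without that library their log2 fold changes were 2.31 and 2.66. Control replicate 3 lay within the exercised range for Lsp1alpha, Lsp1beta, Fbp2, apolpp and Apoltp. It lay below that range for Lsp1gamma, Fbp1 and Lsp2 (11.4 against 21.4 to 34.6 CPM for Lsp2). Of 6 hemocyte markers 2 were higher (PPO1 and NimC1), with a sum of 639 to 1143 CPM in control and 1158 to 1545 CPM in exercised larvae, none was at 0, and Hml, He and eater had log2 fold changes of -0.45, -0.22 and -0.51 that did not pass. The storage protein gene Lsp2 and the lipoprotein gene apolpp did not pass (adjusted p = 0.120 and 0.431). The part of these cells in the results was not tested, and in bulk RNA fewer cells of a type and less RNA per cell cannot be told apart. Of 7 muscle markers none was called, Mhc and Act57B among them (adjusted p = 0.922 and 0.703), while 6 midgut markers summed to at most 0.813 CPM with 3 of them at 0, and 4 testis markers to at most 3.32 CPM. Of 6 neuron markers nrv3 was lower (sums of 53.1 to 69.1 CPM in control and 40.6 to 56.7 CPM in exercised larvae), as was Best2 of 3 Malpighian tubule markers (54.5 to 68.2 against 30.2 to 41.4 CPM). Best2 made up 46.1 to 53.7 CPM of the control sums. Irk3 had 11.6, 8.77 and 2.15 CPM in control replicates 1 to 3 and did not pass (adjusted p = 0.235, edgeR). Uro had 2.83, 2.12 and 0.0457 CPM in these libraries and was not tested.

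Gclc and Trxr1 are X-linked, as are Gss1 and Gss2, and the larvae were not sexed. For roX1, an RNA that coats the male X chromosome, control libraries had 160.3, 157 and 79.4 CPM and exercised libraries 56.2, 4.03 and 4.74 CPM (adjusted p = 0.203, edgeR). roX2 did not pass either (adjusted p = 0.0987). Of the 7 sex markers, msl-2 was lower (-1.69 on the log2 scale, adjusted p = 0.0115). Higher were Sxl (0.70, adjusted p = 0.00223) and tra (0.83, adjusted p = 0.0422), while mle and dsx did not pass. The shares over all tested genes were 10.3% higher and 8.52% lower. The median log2 fold change was 0.027 over 1464 tested X-linked genes and -0.023 over 7483 autosomal ones. Gclm lies on an autosome. The part of the sexes in these results was not tested. The white gene, a transgene marker that is mutant in w1118, was at 0.0579 ± 0.0208 CPM in control and 85.4 ± 39.2 CPM in exercised larvae.

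**Figure D2:**
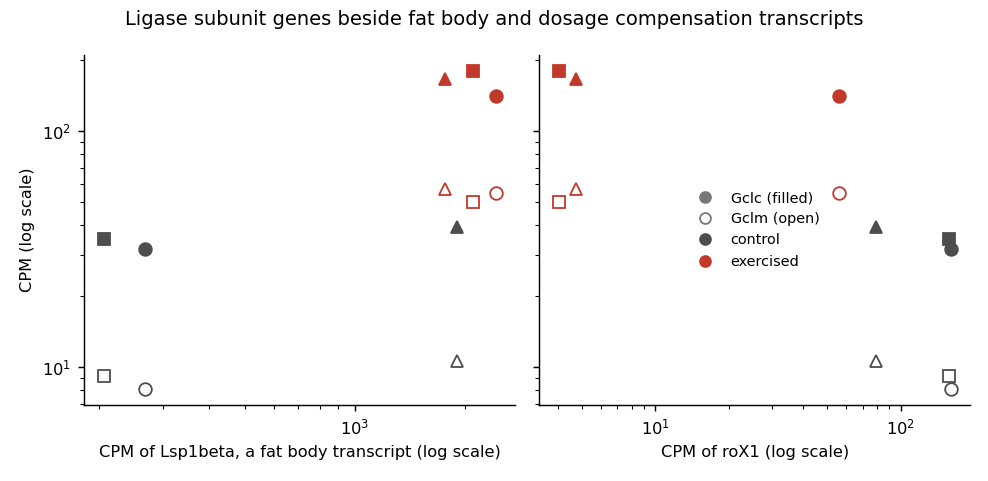
CPM of Gclc (filled) and Gclm (open) on the y axis against CPM of Lsp1beta (left) and roX1 (right), all axes logarithmic, with control libraries gray and exercised ones red (circles, squares and triangles are replicates 1 to 3). Control replicate 3 lies at 1902 CPM of Lsp1beta, within the exercised range, and at 39.2 CPM of Gclc. For the fat body markers Lsp1gamma, Fbp1 and Lsp2 that library was below all exercised ones.

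Gclc (FBgn0040319, chromosome X, 8102181 to 8116147 of release 6, minus strand) encodes the catalytic subunit, which holds the active site of the ligase. It had 771, 755 and 858 reads in control replicates 1 to 3 and 2963, 3504 and 3584 in exercised replicates 1 to 3. As CPM these were 31.6, 34.8 and 39.2 for the controls and 142, 181 and 167 for the exercised larvae. The lowest exercised library lay well above the highest control library. The mean rose from 35.2 ± 3.82 to 163 ± 19.99 CPM (SD, n = 3 libraries each), which is 2.21 on the log2 scale (standard error, SE, 0.12, 95% interval 1.92 to 2.50, adjusted p = 7.58e-05, edgeR). By log2 fold change Gclc held rank 163 of the 9127 tested genes, and by p-value rank 19.

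Gclm (FBgn0046114, chromosome 3R, 22685006 to 22686510, minus strand) encodes the modifier subunit, which raises the affinity of the ligase for glutamate and eases its feedback inhibition by glutathione. The controls held 8.07, 9.14 and 10.6 CPM and the exercised larvae 54.5, 50.3 and 56.7 CPM, from 628 reads over the control and 3333 over the exercised libraries. The 3 exercised libraries were close to each other, and again far above the controls. The log2 fold change was 2.54 (SE 0.12, 95% interval 2.26 to 2.82, adjusted p = 3.34e-05, edgeR), rank 121 by size and rank 12 by p-value. When the test was of a change beyond 1.5-fold (glmTreat of edgeR), which 2.75% of tested genes passed upward, 2 of the genes passed, Gclc and Gclm. Neither lost its call with any 1 library left out, where adjusted p went up to 0.00117 for Gclc and 0.000643 for Gclm.

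Since both subunits rose, their ratio within a library was compared as well. The ratio of Gclc to Gclm CPM, both with a prior count of 2, was 3.88, 3.78 and 3.66 in control replicates 1 to 3 and 2.59, 3.60 and 2.93 in exercised replicates 1 to 3. The exercised libraries all lay below the controls, though exercised replicate 2 came close to control replicate 3. The mean log2 ratio was 1.92 ± 0.043 in control and 1.59 ± 0.24 in exercised larvae, a difference of -0.32 (two-sided exact permutation test, p = 0.1, n = 3 each). This is the smallest p that this test can give for 3 libraries against 3. Per kilobase of annotated exon, Gclc was above Gclm in control larvae by 1.34, 1.30 and 1.26-fold in replicates 1 to 3, and the ratio was 0.888, 1.23 and 1.00 in exercised larvae.

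**Figure D3:**
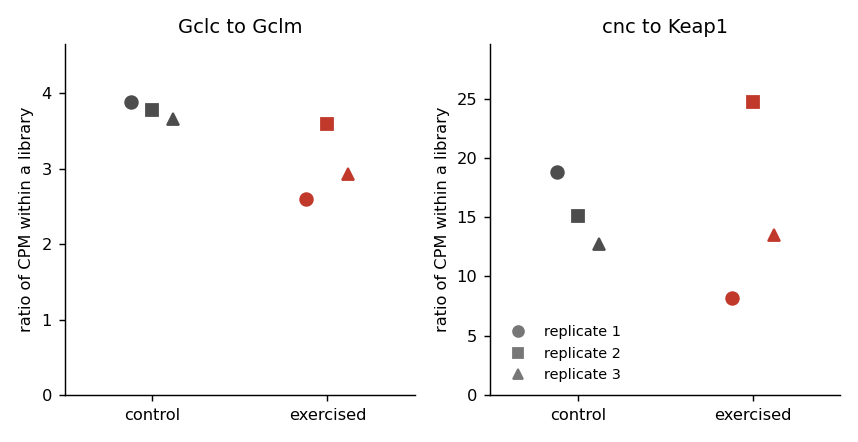
Ratio of CPM (prior count of 2) within each library (y axis, linear from 0) for Gclc to Gclm on the left and cnc to Keap1 on the right, 1 point per library. The Gclc to Gclm ratio lies between 3.66 and 3.88 in control and between 2.59 and 3.60 in exercised larvae, whereas the cnc to Keap1 ratio of the exercised libraries spreads on both sides of the controls.

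Glutathione synthetase, the enzyme of the second step, could not be followed. Gss1 (FBgn0030882, chromosome X, 17889547 to 17898603, plus strand) had 1 read in control replicate 1, 1 read in exercised replicate 3 and 0 in the other libraries. Gss2 (FBgn0052495, chromosome X, 17899702 to 17906025, plus strand) had 0 reads in all 6 libraries, and a count of 0 allows up to 0.155 CPM in the shallowest of them (3 reads, counting error only). The genes lie side by side, with equal annotated exon lengths of 2838 bases, and the pseudogene CR32496 between them had 1 read. CG7772, the next gene beyond Gss2, was covered at 8.72 to 10.4 CPM. No source used here says how reads that fit more than 1 gene were treated, and their part in these counts was not tested. Summing both genes gave 1 read in control and 1 in exercised larvae, so that neither presence nor change can be read from them.

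Trxr1 (FBgn0020653, chromosome X, 8242528 to 8248033, plus strand), the thioredoxin reductase gene, was abundant in both groups. Control values were 199.7, 192 and 231 CPM, and exercised values 339.5, 279 and 331 CPM. The ranges were separate, but the gap between control replicate 3 and exercised replicate 2 was smaller than the spread of the exercised libraries. The log2 fold change was 0.61 (SE 0.11, 95% interval 0.36 to 0.86, adjusted p = 0.00830, edgeR), with adjusted p up to 0.0475 with 1 library left out. sni, on the opposite strand, overlaps Trxr1 by 1489 bases, 435 of them in exons of both genes, and had a mean of 17.0 ± 3.39 CPM among controls and 19.8 ± 1.24 CPM among exercised larvae (0.22 on the log2 scale, adjusted p = 0.348). No source used here says whether reads were counted by strand, and the part of shared bases in these values was not tested. The mean of Trxr1 was 208 ± 20.7 CPM in control and 317 ± 32.7 CPM in exercised larvae.

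ref(2)P (FBgn0003231, chromosome 2L, 19542468 to 19545548, plus strand) was the most expressed of these genes. Reads amounted to 285, 294 and 292 CPM among controls, and to 377, 431 and 388 CPM among exercised larvae. The controls were close to each other, and the lowest exercised library was well above them. The log2 fold change was 0.46 (SE 0.078, 95% interval 0.28 to 0.64, adjusted p = 0.00684, edgeR), with adjusted p up to 0.0338 with 1 library left out. Its 3′ end overlaps the last 173 exonic bases of CG10337 on the opposite strand, chosen after its values were seen. CG10337 rose from 9.58, 10.2 and 10.4 CPM to 32.1, 46.9 and 39.0 CPM (1.97 on the log2 scale, SE 0.15, adjusted p = 0.000252). The 2 genes rose side by side, in the same order of exercised libraries, and how reads in the shared bases were assigned was not tested. By fold CG10337 rose 3.91 times and ref(2)P 1.37 times, the latter from a mean of 290.3 ± 4.65 to 399 ± 28.3 CPM.

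cnc (FBgn0262975, chromosome 3R, 23185580 to 23226711, minus strand) was well expressed and overlapped between the groups. Its controls lay at 208, 175 and 204 CPM, with 207, 233 and 231 CPM for the exercised libraries. Exercised replicate 1 lay within the controls and the other exercised libraries above them. The difference of 0.19 on the log2 scale missed the threshold (95% interval -0.030 to 0.41, adjusted p = 0.206, edgeR), and this interval overlaps that of Trxr1. The gene makes several isoforms from different promoters, of which CncC is 1, and the table holds 1 count for all of them. CncC is known to be controlled through the stability of the protein, which RNA does not show. Irk1 shares 63 exonic bases with the gene on the opposite strand and fzo lies inside an intron of it, at 35.3 ± 14.5 and 0.706 ± 0.0212 CPM in control larvae.

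Keap1 (FBgn0038475, chromosome 3R, 17073942 to 17079945, minus strand) is the inhibitor of CncC and itself a CncC target in flies. Of the 7 tested genes it was the lowest per kilobase of annotated exon and the most variable. Values of 11.0, 11.5 and 16.0 CPM in the controls stood against 25.1, 9.36 and 17.0 CPM in the exercised larvae. Exercised replicate 1 was the highest and exercised replicate 2 the lowest of all libraries. The coefficient of variation was 21.5% in control and 46.0% in exercised larvae, against 1.60 to 13.9% for the other tested genes in either group. The log2 fold change of 0.42 did not pass (95% interval -0.47 to 1.32, adjusted p = 0.482, edgeR), and with 1 library left out it lay between 0.046 and 0.72. The ratio of cnc to Keap1 CPM, again with a prior count of 2, was 18.8, 15.1 and 12.7 in control and 8.19, 24.7 and 13.5 in exercised larvae (difference of the mean log2 ratio -0.14, two-sided exact permutation test, p = 0.9, n = 3 each).

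maf-S (FBgn0034534, chromosome 2R, 20640976 to 20641668, plus strand), the shared dimer partner of the cnc products, was the gene with lower values in the exercised group. Controls were at 17.2, 13.8 and 15.2 CPM, exercised larvae at 13.0, 12.7 and 11.6 CPM. The ranges did not overlap, which held for 39.2% of all tested genes and for 5 of the 7 tested here. The log2 fold change of -0.31 did not pass (95% interval -0.58 to -0.047, adjusted p = 0.0994, edgeR), and adjusted p stayed between 0.0603 and 0.282 over the alternative settings. The intervals of all 7 genes are shown together.

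**Figure D4:**
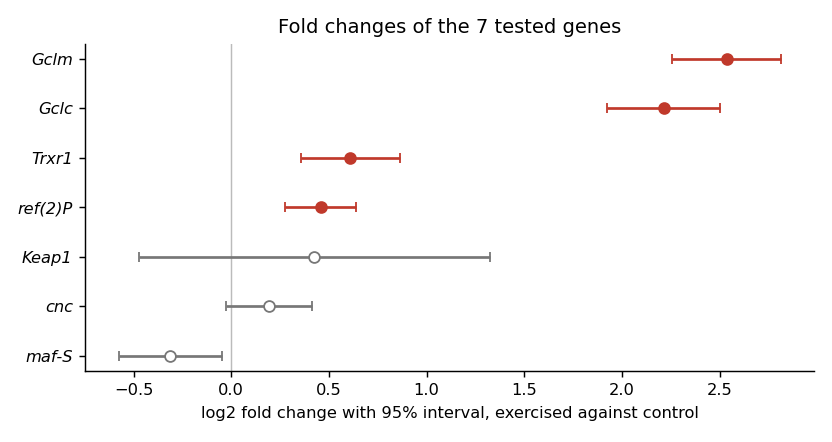
Log2 fold change of exercised against control larvae (x axis) with its 95% interval for the 7 tested genes. Filled red points passed at an adjusted p under 0.05, and Gclm (2.54) and Gclc (2.21) lie apart from Trxr1 (0.61), ref(2)P (0.46) and the genes that did not pass.

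Levels of different genes were compared as CPM per kilobase of annotated exon, which understates genes with many isoforms such as cnc. In control larvae the order was ref(2)P (121 ± 1.94), Trxr1 (66.0 ± 6.59), maf-S (23.8 ± 2.69), cnc (21.3 ± 1.96), Gclc (8.00 ± 0.868), Gclm (6.17 ± 0.859) and Keap1 (3.72 ± 0.800, SD, n = 3). The ranges of maf-S and cnc overlapped, and all other neighbors in that order were separate. In exercised larvae Gclc (37.1 ± 4.54) and Gclm (35.8 ± 2.19) came to lie above cnc (24.4 ± 1.59) and maf-S (19.2 ± 1.08), and the ranges of Gclc and Gclm overlapped. ref(2)P (166 ± 11.8) and Trxr1 (101 ± 10.4) stayed at the top and Keap1 (4.98 ± 2.29) at the bottom.

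Genes that CncC is known to act on in flies changed in both directions. Of 9 tested genes of this list (13 in the table), 4 were higher (GstD1, GstD5, GstD7 and Men), 2 were lower (Cyp6a2 and Jheh2) and 3 did not pass, against 10.3% higher and 8.52% lower over all tested genes, with a median log2 fold change of 0.70 against -0.015 over all tested genes. DESeq2 called 6 of them higher and limma-voom 5, each with 2 lower. GstD1, an abundant glutathione S-transferase whose promoter is used as a CncC reporter, had 1321, 1008 and 1430 CPM in the controls and 2061, 2027 and 2092 CPM in the exercised libraries (0.72 on the log2 scale, SE 0.12, adjusted p = 0.00748, edgeR). GstD5, of the same cluster, rose from 1.52, 1.71 and 2.28 CPM to 21.7, 23.0 and 21.0 CPM (3.57 on the log2 scale, SE 0.16, adjusted p = 2.53e-05). GstD7 rose by 2.85 on this scale (SE 0.67, adjusted p = 0.0444), with the control replicate 3 value of 12.7 CPM above the other controls, and lost its call with any 1 library left out except control replicate 3 (adjusted p up to 0.122), and without the low-count filter (0.0975). GstD2 (0.70 on the log2 scale, adjusted p = 0.0557) and GstE1 (0.65, adjusted p = 0.0721) did not pass. Their ranges were separate, as were those of 39.2% of all tested genes. These transferases are close relatives, so that reads could be split between them.

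Cyp6a2, a cytochrome P450 gene that xenobiotics induce through CncC, fell from 23.8, 19.8 and 20.6 CPM to 1.72, 2.17 and 2.32 CPM. Its log2 fold change of -3.36 (SE 0.15, adjusted p = 2.53e-05, edgeR) was opposite to that of the ligase genes and larger in size. Jheh2, a juvenile hormone epoxide hydrolase gene, fell by 0.55 (SE 0.090, adjusted p = 0.00594), while its neighbor Jheh1 did not pass (-0.16 on the log2 scale, adjusted p = 0.405). The other 4 genes of the list were left out of the test for low counts, and Cyp12d1-d had 0 reads.

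Among 9 tested genes for partners and regulators of CncC, maf-S included, 4 passed as higher and 1 as lower (10.3% and 8.52% over all tested genes), with a median log2 fold change of 0.15. Jra, the fly Jun, rose from 30.0 ± 7.74 to 76.5 ± 5.71 CPM (SD, n = 3, 1.35 on the log2 scale, SE 0.17, adjusted p = 0.00282, edgeR), and kay, the fly Fos, by 0.53 (SE 0.082, adjusted p = 0.00486). Both encode leucine zipper proteins of AP-1. Myc rose by 1.07 (SE 0.11, adjusted p = 0.00100) and sgg, the GSK-3 kinase gene, by 0.49 (adjusted p = 0.0131, but 0.0504 without control replicate 2 and 0.0612 without exercised replicate 3). crc, the fly ATF4, fell by 0.45 from the highest level of this list (SE 0.065, adjusted p = 0.00365).

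None of the genes for the Keap1 ligase and the partners of ref(2)P passed, against 10.3% higher and 8.52% lower over all tested genes. All 7 that were tested (Cul3, Roc1a, Nedd8, Atg8a, aPKC, Traf6 and park) had log2 fold changes between -0.24 and 0.055, and none had an unadjusted p under 0.05 by edgeR, DESeq2 or limma-voom. Cul3, the scaffold of the ligase, varied from 75.1 to 80.3 CPM among controls and from 75.4 to 81.0 CPM among exercised larvae, so that the libraries of both groups were mixed. Atg8a, the autophagosome protein that ref(2)P binds, was the most expressed of them at 287 ± 26.0 and 243 ± 24.4 CPM (-0.24 on the log2 scale, adjusted p = 0.156).

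NADPH is the electron source of Trxr1. Among genes listed for NADPH supply and the pentose phosphate pathway, 4 of 7 were higher and none was lower, against 10.3% and 8.52% of all tested genes by edgeR. Counts were the same at an unadjusted p under 0.05 and with DESeq2 and limma-voom. The median log2 fold change was 0.36, and Men is also in the list of CncC target genes. Pgd, the second NADPH-producing enzyme of the pentose phosphate pathway, rose from 49.6, 48.0 and 47.4 CPM to 94.5, 71.3 and 74.9 CPM (0.73 on the log2 scale, SE 0.11, adjusted p = 0.00477). Men, the malic enzyme gene, rose from 434 ± 18.5 to 706 ± 122 CPM (0.70 on the log2 scale, SE 0.12, adjusted p = 0.00814). Men-b (0.36, adjusted p = 0.0214) and Taldo (0.38, adjusted p = 0.0391) rose by less, and Men-b did not pass without control replicate 2 or exercised replicate 3 (adjusted p up to 0.103), nor Taldo when control replicates 2 and 3 or exercised replicates 1 and 3 were left out singly (up to 0.133) or with upper-quartile factors (0.0651). Zw, which encodes the first enzyme of the pathway, did not pass (adjusted p = 0.320), with 11.2 ± 1.55 CPM in control and 12.9 ± 0.594 CPM in exercised larvae.

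Of 9 genes for cysteine supply and the methionine cycle, 1 was higher and 1 lower, shares close to the 10.3% and 8.52% over all tested genes, with a median log2 fold change of -0.055. CG10621, a predicted homocysteine methyltransferase, rose from 2.77 ± 1.45 to 14.9 ± 1.93 CPM (2.43 on the log2 scale, SE 0.34, adjusted p = 0.00458, edgeR), and Sam-S, which makes S-adenosylmethionine, fell by 0.30 (adjusted p = 0.0338, a call lost in 4 of the 6 fits with 1 library left out, those without control replicates 2 and 3 and exercised replicates 1 and 3, with values up to 0.142, and without the low-count filter, at 0.0509). Cbs and Cth, the transsulfuration enzymes which make cysteine, did not pass (log2 fold changes -0.31 and -0.055, adjusted p = 0.160 and 0.850).

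CG10365, whose product belongs to the ChaC family that cleaves glutathione in the cytosol, fell while the ligase genes rose. Control libraries had 60.2, 77.5 and 104 CPM, exercised libraries 14.9, 23.4 and 16.8 CPM (-2.13 on the log2 scale, SE 0.26, adjusted p = 0.00330, edgeR). The highest exercised value was below the lowest control value, and the call held with any 1 library left out (adjusted p up to 0.0214). MRP, an ABC transporter gene whose family exports glutathione conjugates, rose from 684 ± 30.2 to 1054 ± 161 CPM (0.63 on the log2 scale, SE 0.12, adjusted p = 0.00974). The other 4 of 6 tested genes of breakdown and export did not pass, among them the gamma-glutamyl transpeptidase gene Ggt-1 (0.45 on the log2 scale, adjusted p = 0.119), and the median was 0.033. The 1 gene higher and 1 lower of this list stood against 10.3% and 8.52% of all tested genes.

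Enzymes that use glutathione outside the delta and epsilon transferase classes showed no common direction. Of 13 tested, 1 was higher (GstZ1), 2 were lower (GstS1 and GstT4) and 10 did not pass (10.3% higher and 8.52% lower over all tested genes), with a median log2 fold change of 0.053. GstT4, a theta class transferase, fell from 183, 154 and 302 CPM to 37.3, 69.9 and 55.5 CPM (-1.97 on the log2 scale, SE 0.35, adjusted p = 0.0154, edgeR, and 0.0669 without exercised replicate 3). GstS1, the sigma class transferase abundant in flight muscle, fell by 0.43 (adjusted p = 0.0158) and GstZ1 rose by 0.40 (adjusted p = 0.0263), but GstS1 missed the threshold without control replicate 1, control replicate 2 or exercised replicate 3 (adjusted p up to 0.0729), and GstZ1 without control replicate 1, control replicate 2, exercised replicate 2 or exercised replicate 3 (up to 0.0917). Fdh encodes an enzyme that clears formaldehyde bound to glutathione. By mean CPM over both groups, without regard to exon length, Fdh was the most expressed of the list. It did not pass (0.11 on the log2 scale, adjusted p = 0.418, edgeR).

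In the thioredoxin and glutaredoxin system, 1 of 15 tested genes was higher, 1 was lower and 13 did not pass, not far from the 10.3% and 8.52% over all tested genes, with a median log2 fold change of -0.021. Trx2, which encodes the main cytosolic substrate of Trxr1, went from 291, 281 and 302 CPM to 340.3, 327 and 330.1 CPM. This small difference did not pass (0.19 on the log2 scale, adjusted p = 0.10, edgeR). Its ranges were separate, as were those of 39.2% of all tested genes. Prx3, a mitochondrial peroxiredoxin, rose by 0.58 (adjusted p = 0.0117, and 0.0504 without control replicate 2). Sesn, the fly sestrin, had a log2 fold change of -1.18 (adjusted p = 0.0163), from 65.8, 47.5 and 92.0 CPM to 29.8, 31.8 and 29.3 CPM. Its call held under 11 of 14 alternative settings, with adjusted p up to 0.0729 without 1 of the exercised replicates. The fold changes of all lists are drawn side by side.

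**Figure D5:**
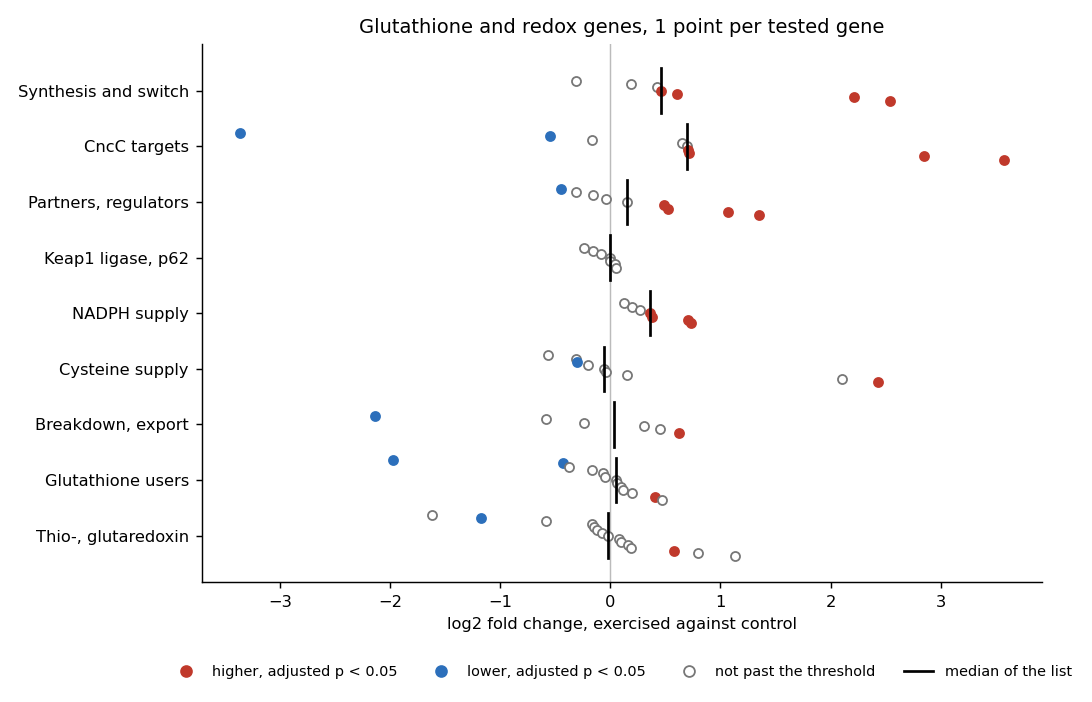
Log2 fold change of exercised against control larvae (x axis) for each tested gene of 9 lists (rows), filled where the adjusted p was under 0.05, with a bar at the median of each list. The 7 tested genes of synthesis and the switch have a median of 0.46, the Keap1 ligase and p62 genes lie close to 0, and GstD5 and Cyp6a2 mark the 2 ends of the CncC target genes.

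The genes whose log2 CPM followed these genes most closely over the 6 libraries were sought among those averaging 5 CPM or more, as a description only, since with 2 groups many genes correlate. For Gclc they were CG14995, Ude and Pfrx (Pearson r of 0.998 each, n = 6 libraries). For Gclm they were CG10973, GstD5 and CG30457 (r of 1.00, 0.998 and 0.998), of which CG30457 rose from 73.0 to 817 CPM. For Trxr1 they were CG4293, CG13117 and the chaperone gene Hsc70-3 (r of 0.997, 0.997 and 0.996). For ref(2)P they were the transcription factor gene Xrp1, the zinc transporter gene ZnT63C and CenB1A (r of 0.997, 0.996 and 0.995).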

How the data were processed

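Per the labels and methods, read quality was examined by FastQC, alignment was by STAR (genome release 6) and gene counting by featureCounts. The authors went on with DESeq2. The deposited values are raw counts per gene for each library, not pooled. No source used here gives tool versions, the annotation, the strand setting or what was done with multi-mapping reads. Control libraries held 20485254 to 23953341 counts, exercised ones 19625425 to 22063283. Symbols and positions came from the BDGP6 annotation of Ensembl, in release 6 coordinates, which held 17200 of 17477 identifiers, and 91 of 97 entries of the pathway lists were found in the table, some by an older symbol.

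Counts were filtered with filterByExpr (9127 genes kept), scaled by TMM, fitted with glmQLFit (robust=TRUE) and tested with glmQLFTest of edgeR 4.0.16 in R 4.3.3, with condition as the only term and Benjamini and Hochberg adjustment over all tested genes. The standard error is the log2 fold change over the root of the F statistic, and the 95% interval uses the degrees of freedom of the fit. The labels do not say whether replicates came from separate cultures, and the study calls them independent biological replicates. With 3 libraries against 3, an exact test of a single value cannot go below p = 0.1. Floors from counts cover counting error only, while the 95% intervals also take in the spread between libraries as estimated by the fit.

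The members and lists were chosen with earlier results of these data known. Named are all members, the called members of each list and its most expressed one, the 3 genes most correlated with Gclc and each called member, and checks of genotype, sex and tissue. Other names, such as examples that did not pass, were chosen after their values were seen, and not every gene that the rule names is described. The alternatives were DESeq2 1.42.0, limma-voom (limma 3.58.1), upper-quartile and RLE factors, genes kept without a filter or at a CPM of 1 or more throughout, a replicate block, robust=FALSE, glmTreat at 1.5-fold, each library left out and, for the ratios, raw counts. The fits by edgeR, limma-voom and DESeq2 were tried on simulated counts with the same biological variation for all genes. The other steps were not tried on simulated data.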

Additional observations from a re-analysis of the deposited data

How the results depend on the processing

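Of the genes of glutathione synthesis and the CncC/Keap1 switch, the same number, 4, was called higher and 0 lower under each alternative other than the test of a change beyond 1.5-fold, where 2 were higher (Trxr1 and ref(2)P each had an adjusted p of 1.00). Gclc ranged from 2.13 to 2.31 and Gclm from 2.44 to 2.66 on the log2 scale, Trxr1 from 0.55 to 0.71 and ref(2)P from 0.40 to 0.50. Keap1 ranged from 0.046 to 0.72, and cnc, Keap1 and maf-S passed under none of the alternatives. Over all genes, 1714 were called, 936 higher and 778 lower, but 773 higher and 1003 lower with upper-quartile factors. With the replicate number as a block these were 1064, 599 and 465. The block left the 4 calls of the synthesis and switch genes in number and took the calls of GstD7 (adjusted p = 0.122, edgeR), Sam-S (0.0924), GstS1 (0.0545), GstZ1 (0.0910) and Men-b (0.0678). The labels do not say whether the replicate numbers pair the libraries. The deviations of same-numbered libraries from their group means correlated at -0.22, 0.0029 and -0.24 for replicates 1 to 3. Differently numbered ones gave -0.0098 to 0.29. Deviations from a mean of 3 libraries depend on each other, so these values cannot decide whether libraries were paired. With 1 library left out, 827 (without exercised replicate 3) to 1781 genes were called, 469 to 934 of them higher and 358 to 847 lower. Without control replicate 2 the counts were 1030, 553 and 477. Leaving out a library moved the difference of the log2 ratio of cnc to Keap1 between -0.55 and 0.25, with a change of sign without control replicate 1 (0.011) or exercised replicate 1 (0.25), and that of Gclc to Gclm between -0.45 and -0.22. On raw counts these ratios differed by -0.14 and -0.33. A fit of Gss1 and Gss2 summed was not possible, since 2 reads did not pass the filter. Keap1 and maf-S had 766 to 1073 reads per group.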
